A study of Rattus norvegicus with 8 samples.

Results

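The smooth muscle contractile and cytoskeletal genes described here are 32 genes, listed by symbol, that encode the thin filament, the myosin motor, the cytoskeleton and attachment sites, the calcium handling and the transcription factors of smooth muscle. Of the 32, 30 had at least 1 probe set carrying that single symbol, among 14217 genes with such a probe set on the array, and Myl6 and Pgm5 had none. The brightest probe set by the mean of all 8 arrays stood for each gene. RNA came from scrapings of the distal colon mucosa of rats fed for 11 weeks. The control group (4 arrays) had the control diet, and the quercetin group (4 arrays) had 10 g of quercetin, a plant flavonol, in each kg of diet. The control diet was the breeder diet RM3 [E] FG SQC, and no strain, sex or age of the rats is given in the sources used here. The colon was rinsed in cold ethanol and scraped with glass slides, so each array reads the RNA of every cell that came off with the mucosa. Nothing in the labels states that each array holds a separate rat, so the p-values cover only how far these 8 samples scatter, which may be technical.

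Smooth muscle shortens when calcium and calmodulin switch on the myosin light chain kinase Mylk, which phosphorylates the regulatory light chain so that the myosin Myh11 can pull on actin. A phosphatase with the targeting subunit Ppp1r12a reverses this, and the inhibitor Ppp1r14a restrains the phosphatase. Most contractile genes are driven by the factor Srf, which binds a DNA element named the CArG box, together with its partner Myocd. In the colon these genes mark the outer muscle coat, the thin muscularis mucosae below the crypts, myofibroblasts and vessel walls, whereas several of them are also used by epithelial cells to build adhesions and stress fibres.

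The CArG box is the element that ties this gene group to its factor, so the bases just before the RefSeq start (assembly GRCr8) are shown for Srf, for Acta2, the classic smooth muscle actin, and for Vcl, the member with the widest gap between the diets. Capitals mark CC, then 6 letters of which at most 1 is not A or T, then GG. The element reads as the same kind of element on the other strand, so 1 strand was searched, over 250 bases before each start. Each line shows the last 150 bases before the start, written 5′ to 3′ on the gene's strand, and the start itself lies just beyond the last letter. Srf is at chr9:21923926-21924075 on the plus strand, Acta2 at chr1:241172504-241172653 on the minus strand and Vcl at chr15:3404801-3404950 on the minus strand.
Srf: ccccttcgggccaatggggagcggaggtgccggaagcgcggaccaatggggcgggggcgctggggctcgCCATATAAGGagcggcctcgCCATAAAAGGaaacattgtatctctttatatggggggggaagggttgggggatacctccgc
Acta2: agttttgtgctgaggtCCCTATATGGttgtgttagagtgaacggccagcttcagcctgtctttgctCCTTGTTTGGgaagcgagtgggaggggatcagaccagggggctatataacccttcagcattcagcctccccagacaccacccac
Vcl: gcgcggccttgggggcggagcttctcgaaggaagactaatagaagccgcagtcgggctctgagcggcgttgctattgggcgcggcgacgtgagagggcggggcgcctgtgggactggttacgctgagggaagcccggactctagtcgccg
Srf carried 2 boxes with a pure A or T core, which start 81 and 61 bases before the gene's start. Acta2 carried 2 boxes with 1 other letter in the core, at 134 and 84 bases. No such letters stood in the 250 bases searched for Vcl. Of 26 members with a promoter in the table, 1 (Srf) held a pure box and 2 (Srf and Acta2) held a box of either kind. Over all 33469 promoters, several of which can belong to 1 gene, 1.5% held a pure box and 8.08% a box of either kind. These matches describe letters and not bound sites.

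The values are MAS5 signals, in which the probes of a probe set are combined into 1 linear brightness and each array is scaled to a common mean (2% trimmed mean 200.1 on every array). Differences are on the log2(signal + 16) scale, quercetin minus control, and limma was run on the brightest 60% of probe sets (mean of the 8 arrays), those above a signal of about 29.4. The median log2 signal (with 16 added) of the arrays ran from 5.94 to 6.25. Control array 2 stood apart from the rest, with a mean correlation of 0.927 with the other arrays against 0.941 to 0.955 for them. Its 3' to 5' signal ratio of beta-actin, which is high when RNA is shortened, was 21.4 against 6.79 to 12.4 elsewhere.

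Of the 30 members with a probe set, 9 lay below the filter and were not tested: Tagln, Cnn1, Kcnmb1, Lmod1, Myocd, Myl9, Pln, Ppp1r14a and Actg2. Smooth muscle markers such as Myh11, Smtn, Acta2 and Des lay above it. On the 8 arrays the signals of the 9 signals ran from 1.44 to 47.6, and 12 of the 72 signals were above the signal at the filter. Just outside the filter was Actg2, with a mean signal of 26.3, and just inside it were Casq2 (43.3) and Des (45). Signals of different probe sets depend on their probes as well as on the transcript, so the order of members by brightness is not an order of RNA amounts.

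**Figure D1:**
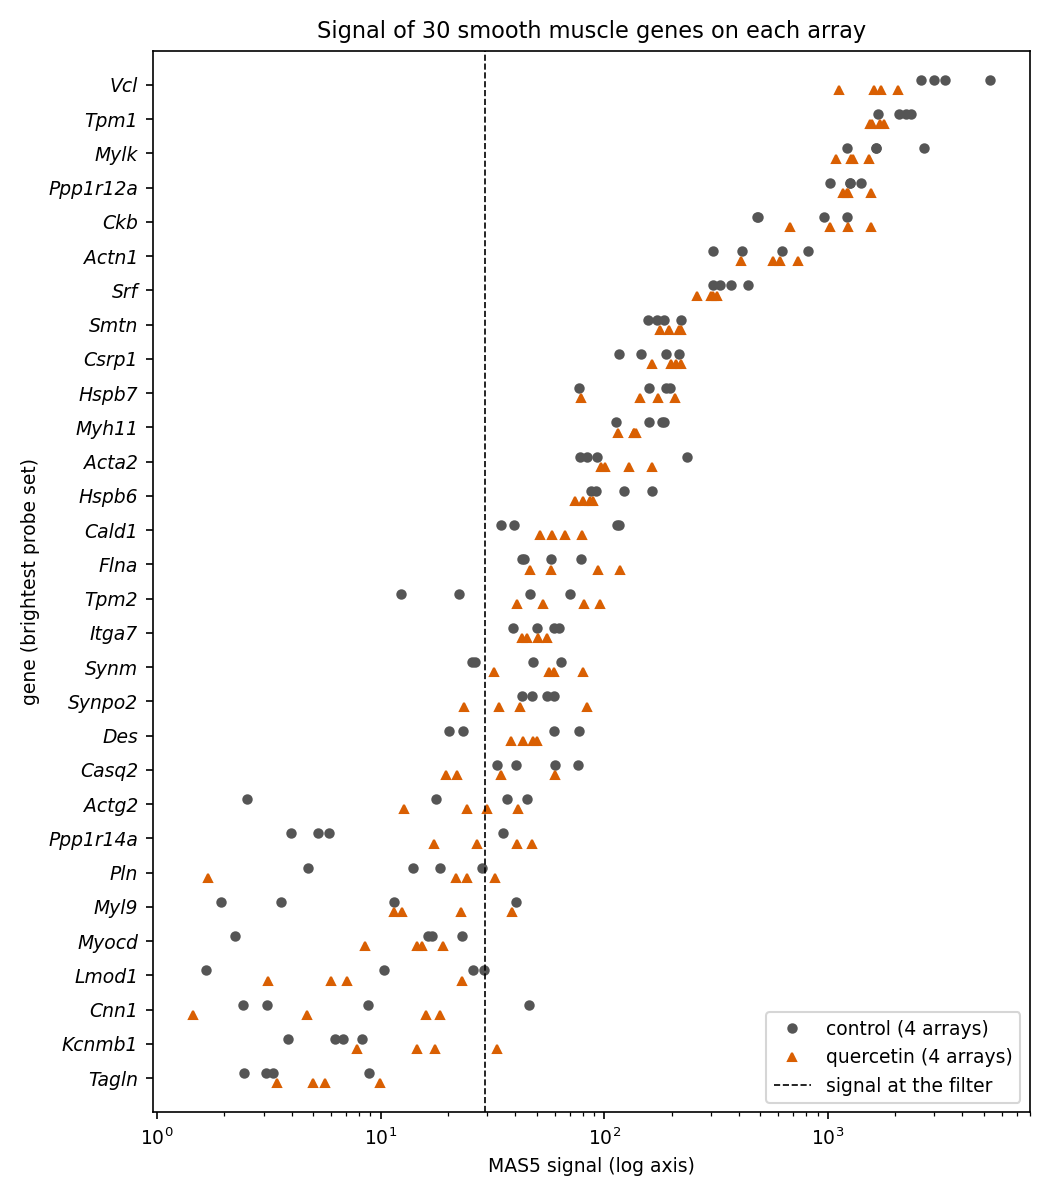
MAS5 signal (log axis) of the brightest probe set of each of 30 smooth muscle genes on the 4 control arrays (circles) and the 4 quercetin arrays (triangles), with the signal at the filter (about 29.4) as a dashed line. The control and quercetin points of a gene overlap in every row above the line except that of Vcl, where the 4 quercetin signals (1121 to 2052) lie below the 4 control signals (2623 to 5309.9).

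The thin filament holds actin, the tropomyosins along it and the proteins that bind or stabilise it. Tagln, the actin-binding protein transgelin that is abundant in smooth muscle, had signals of 2.44, 8.86, 3.30 and 3.06 on control arrays 1 to 4 and of 5.63, 3.45, 9.90 and 5 on quercetin arrays 1 to 4. Cnn1, calponin, which binds actin and slows the myosin motor, had 2.41, 46.1, 3.11 and 8.82 in control and 1.44, 18.4, 4.66 and 15.9 in quercetin. The single high value of calponin was on control array 2, and all other signals of these genes were below the signal at the filter. Actg2, the gamma actin of enteric smooth muscle, ran from 2.53 to 45 in control and from 12.7 to 41.1 in quercetin. Lmod1, a leiomodin that nucleates actin filaments, ran from 1.66 to 29.0 in control and from 3.12 to 23.2 in quercetin. Neither gene separated the diets.

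Acta2, the smooth muscle alpha actin, was tested, with signals of 235, 92.8, 83.4 and 78.1 on control arrays 1 to 4 and of 97.0, 129, 101 and 163 on quercetin arrays 1 to 4. Control array 1 had the highest signal of all 8, and the other 3 control arrays lay below all 4 quercetin arrays. The log2 fold change was 0.11 (SE 0.299, limma adjusted p = 0.934). Without control array 1 it was 0.44 (adjusted p = 0.494), and without control array 2 it was 0.03 (adjusted p = 0.981). On control array 1, where Acta2 was brightest, Myh11, Lmod1, Mylk, Tpm1, Srf and Vcl also had their highest signal of the 8 arrays. Tagln, Des, Myl9, Smtn, Hspb7 and Actn1 had their lowest signal there. Of these genes, Lmod1, Tagln and Myl9 were below the filter.

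Tpm2, the beta tropomyosin typical of muscle, had 46.4, 12.3, 70.4 and 22.3 in control and 53.4, 95.3, 40.7 and 81.0 in quercetin. Its mean was higher in quercetin but the groups overlapped, with a log2 fold change of 0.71 (SE 0.366, limma adjusted p = 0.515), or 0.45 without control array 2. The other Tpm2 probe set, below the filter, had a difference of -0.31. Smtn, smoothelin of contractile smooth muscle, was steady, at 157 to 221 in control and 178 to 221 in quercetin (log2 fold change 0.13). Cald1, caldesmon, which binds actin, had 114, 116, 39.5 and 34.7 in control and 51.7 to 79.7 in quercetin. Its control arrays made a high and a low pair, and the quercetin arrays lay between them.

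Tpm1, the alpha tropomyosin gene whose splice forms serve both muscle and non-muscle cells, had 7 probe sets, of which 5 were tested. The brightest gave 2364, 1673, 2078 and 2231 in control and 1708, 1542, 1575 and 1785 in quercetin. Only control array 2 reached down into the quercetin range. The log2 fold change was -0.32 (SE 0.134, unadjusted p = 0.0313, limma adjusted p = 0.413). It was -0.43 without control array 2 and -0.26 without control array 1. The next probe set, 1395794_at, had 722, 944, 916 and 739 in control and 128, 278, 418 and 526 in quercetin, with no overlap. Its log2 fold change was -1.41 (SE 0.318, unadjusted p = 0.000672, limma adjusted p = 0.258), which did not pass. The other tested Tpm1 probe sets gave -0.66, -0.09 and 0.35. Which splice forms each probe set reads is not given in the sources used here.

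Myh11, the heavy chain of smooth muscle myosin, had signals of 185, 113, 158 and 182 in control and 115, 139, 136 and 136 in quercetin. All quercetin signals lay within the control range, and the log2 fold change was -0.24 (SE 0.189, limma adjusted p = 0.700). Control array 2 alone was that low in its group: without it the quercetin signals lay below the other 3 control signals. The log2 fold change was then -0.38 (limma unadjusted p = 0.0475, adjusted p = 0.459). Without control array 1 instead, the groups overlapped and it was -0.16 (limma unadjusted p = 0.432, adjusted p = 0.81). Groups of fewer arrays separate more easily. Myl9, the regulatory light chain that Mylk phosphorylates, was below the filter, at 1.94 to 40.5 in control and 11.5 to 38.5 in quercetin. Mylk, whose gene also yields a long kinase form of non-muscle cells, had 2693, 1643, 1219 and 1636 in control and 1294, 1086, 1534 and 1264 in quercetin. Its log2 fold change was -0.42 (SE 0.205, limma adjusted p = 0.491). Without control array 1 this was -0.21, and without control arrays 1 and 2 it was -0.13. The second Mylk probe set, below the filter, had 0.21.

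On the phosphatase side, Ppp1r12a had 1019 to 1405 in control and 1172 to 1564 in quercetin, with a log2 fold change of 0.07 (SE 0.143, 95% interval -0.24 to 0.38). Its other 3 probe sets gave -0.18, -0.43 and 0.51. Ppp1r14a, the phosphatase inhibitor found mainly in smooth muscle, had 35.3, 5.26, 3.99 and 5.86 in control and 40.7, 27.1, 47.6 and 17.3 in quercetin. It lay below the filter and was not tested. Control array 1 was high, and the other 3 control arrays were lower than every quercetin array.

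Vcl, vinculin, which couples integrin adhesions and cell junctions to actin in muscle and epithelium alike, was the member with the largest difference. Its signals were 5309.9, 2992, 2623 and 3339 on control arrays 1 to 4 and 2052, 1121, 1730.4 and 1617 on quercetin arrays 1 to 4. No quercetin array reached the lowest control array. The mean was 3566 ± 1199 (SD, n = 4) in control and 1630.1 ± 386 (SD, n = 4) in quercetin. The log2 fold change was -1.10 (SE 0.222, 95% interval -1.58 to -0.62), and it did not pass over all probe sets (limma unadjusted p = 0.000261, adjusted p = 0.221). Without control array 1, where the signal was highest, it was -0.89 (adjusted p = 0.246), and without control arrays 1 and 2 it was again -0.89 (adjusted p = 0.594).

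The 2 other Vcl probe sets were also lower in quercetin on average, by less. Probe set 1372905_at had 1715, 1517, 1411 and 1804 in control and 968, 1176, 1427 and 1351 in quercetin. Quercetin array 3 was the only one to overlap the control range, and the log2 fold change was -0.39 (SE 0.148, unadjusted p = 0.0198, limma adjusted p = 0.372). The dim probe set 1398476_at gave -0.26 (SE 0.537), with signals of 11.1 to 111 over the 8 arrays. Over the 3 probe sets the size of the Vcl difference thus ran from -1.10 to -0.26.

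**Figure D2:**
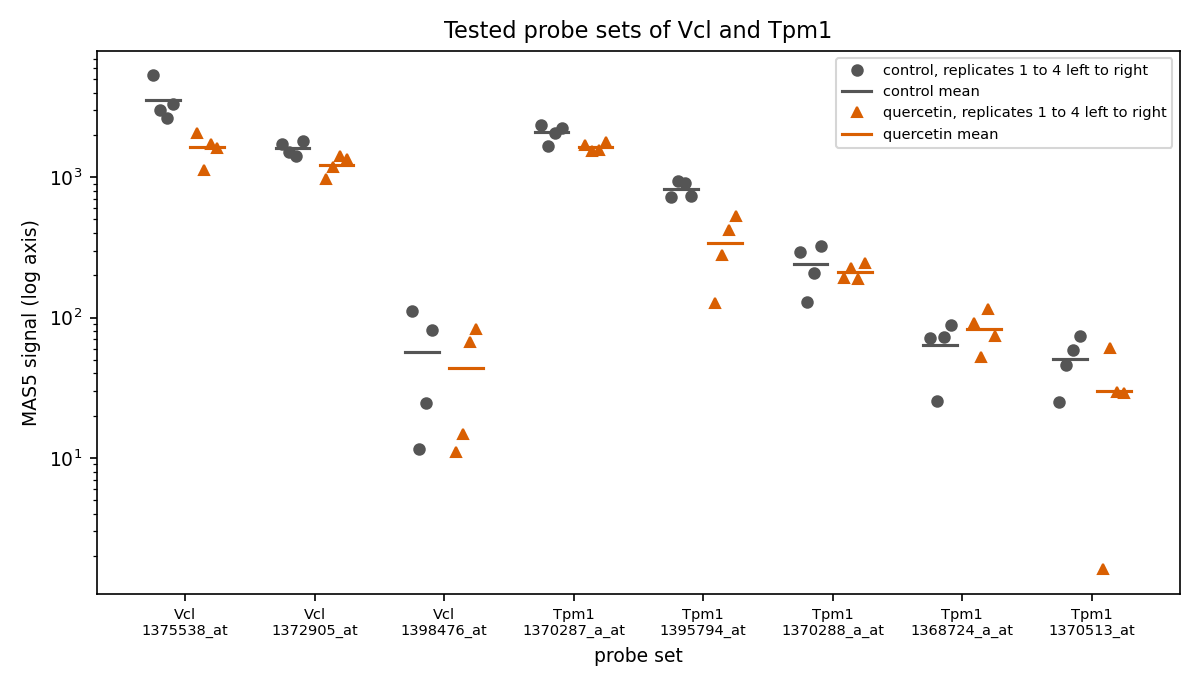
MAS5 signal (log axis) on each array for the 3 tested Vcl and 5 tested Tpm1 probe sets, with control as circles, quercetin as triangles, replicates in order within each cluster and bars at the group means. The diets do not overlap for Vcl 1375538_at and Tpm1 1395794_at, and overlap for the other 6 probe sets.

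Of the 8 tested filament and adhesion members, Vcl among them, 5 were higher and 3 lower in quercetin on average. Flna, filamin A, which crosslinks actin, had 43.8, 42.9, 78.5 and 57.5 in control and 93.5, 118, 57.9 and 46.6 in quercetin (log2 fold change 0.37, SE 0.286). Actn1, alpha-actinin of adhesions and dense bodies, had 305, 815, 624 and 414 in control and 409 to 733 in quercetin (0.17), and its second probe set gave 0.34. Csrp1, a LIM protein of the actin cytoskeleton, ran from 116 to 215 in control and from 164 to 219.6 in quercetin (0.26). These 3 means were higher in quercetin, with overlapping groups and adjusted p of 0.688 for Flna, 0.866 for Actn1 and 0.688 for Csrp1.

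Des, desmin, the intermediate filament of muscle, had 20.3, 59.3, 23.4 and 76.8 in control and 43.5, 38.4, 47.9 and 50.1 in quercetin. The control arrays were split above and below the quercetin arrays, and the group means were 45 ± 27.6 and 45 ± 5.18 (SD, n = 4 each). Synm, synemin, which joins desmin filaments to the membrane, ran from 25.7 to 64.3 in control and from 32 to 80.1 in quercetin (log2 fold change 0.37). Synpo2, an actin-bundling protein of muscle, ran from 42.7 to 59.6 and from 23.5 to 83.9 (-0.20), and Itga7, the laminin receptor of muscle, from 39.0 to 62.6 and from 42.8 to 55.4 (-0.08). Every one of these ranges overlapped between the diets.

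Ckb, the brain-type creatine kinase that buffers ATP in smooth muscle and also in gut epithelium, had 1217, 486, 484 and 959 in control and 675, 1233, 1021 and 1554 in quercetin. It was higher on average in quercetin with wide overlap (log2 fold change 0.56, SE 0.306, limma adjusted p = 0.549), or 0.37 without control array 2 and 0.80 without control array 1. Hspb6, a small heat shock protein of muscle that is tied to relaxation, had 87.3 to 164 in control and 74.2 to 89.1 in quercetin (log2 fold change -0.39, SE 0.217, adjusted p = 0.556). Hspb7, a related protein of heart and other muscle, had 77.3 to 197 in control and 78.7 to 207 in quercetin (-0.03). Casq2, a calcium store protein, had 33.0 to 76.4 and 19.6 to 60.1 (-0.48, SE 0.327). Pln, which restrains the calcium pump of the store, and Kcnmb1, the smooth muscle subunit of the large calcium-activated potassium channel, were below the filter. Pln ran from 4.74 to 28.5 in control and 1.69 to 32.4 in quercetin, and Kcnmb1 from 3.85 to 8.26 and from 7.80 to 33.1.

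Of the transcription factors, Myocd, the muscle partner of Srf, was below the filter with 2.22 to 23.0 in control and 8.51 to 19.0 in quercetin. Srf, which is made in most cells, had 441, 368, 329 and 305 in control and 299.5, 306, 318 and 259 in quercetin. Control array 1 was the highest, and quercetin arrays 2 and 3 lay above control array 4. The log2 fold change was -0.26 (SE 0.156, limma adjusted p = 0.584), or -0.17 without control array 1, and the second Srf probe set gave 0.04.

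Across the 21 tested members 0 passed limma's adjusted threshold of 0.05, where 0.0107% of all 18625 probe sets tested passed, all of them lower in quercetin. Vcl and Tpm1, 2 members, had an unadjusted p under 0.05, or 9.52% against 10.8% of all probe sets tested. The groups did not overlap in 1 member, Vcl, or 4.76% against 6.39%. These shares are near the background. Of the 21, 10 were higher and 11 lower in quercetin (47.6% higher, against 51.3% of all probe sets), with a median log2 fold change of -0.03 against 0.01 over all. Among the 33 tested probe sets of the members, 0 passed, 4 had an unadjusted p under 0.05 (12.1%) and 2 did not overlap (6.06%). Counting also probe sets below the filter, 12 of the 16 members with several had them on both sides of 0. Among tested probe sets alone, only Tpm1, Synpo2, Srf and Ppp1r12a did.

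**Figure D3:**
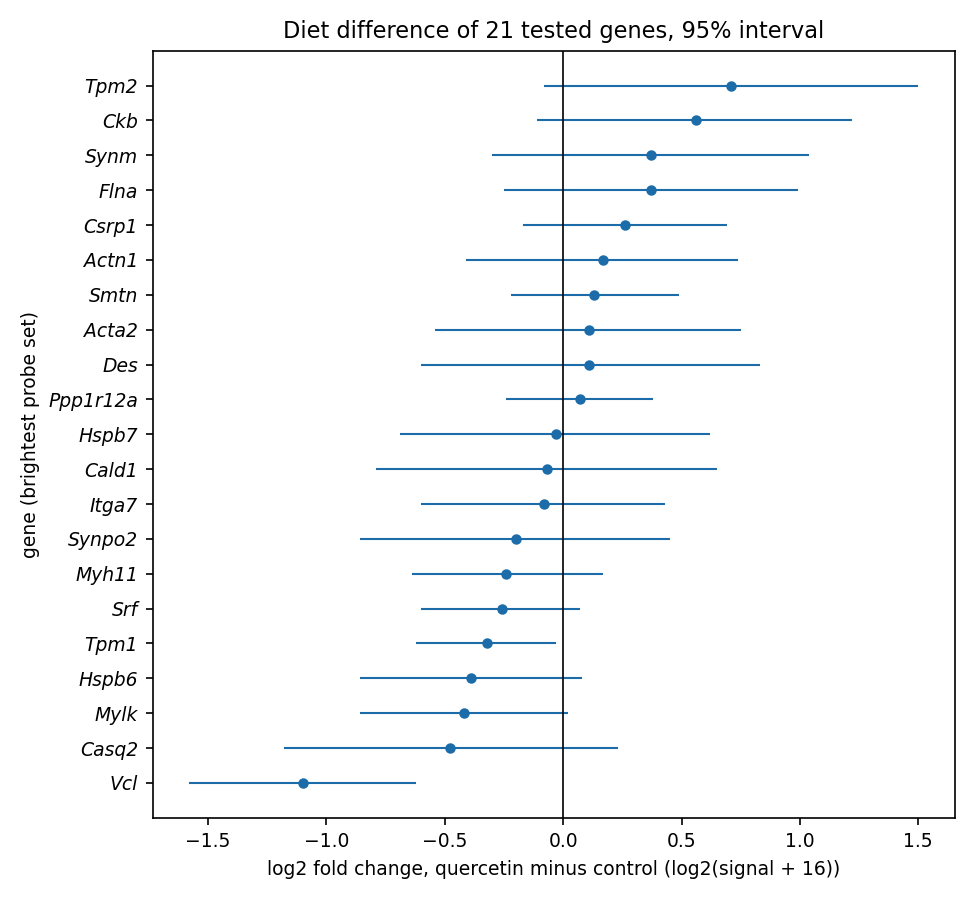
Log2 fold change (quercetin minus control, on log2(signal + 16)) of the brightest probe set of each of 21 tested genes, with 95% intervals from limma that are not adjusted for the number of genes. The intervals of Vcl (-1.58 to -0.62) and Tpm1 (-0.62 to -0.03) lie below 0, and the other 19 include it.

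By role, the 5 tested thin filament genes had a median of 0.11 with 3 higher, the 3 tested myosin and switch genes -0.24 with 1 higher, the 8 tested filament and adhesion genes 0.14 with 5 higher, and the 4 tested calcium and energy genes -0.21 with 1 higher. No role had members on 1 side alone except the factors, where only Srf was tested. With both groups pooled, the tested members had a median within-group SD of 0.418 against 0.307 for all probe sets on the log2 scale. The wider scatter was that of the control arrays, with a median SD of 0.415 against 0.303 for all probe sets. Among quercetin arrays the members scattered less than probe sets in general, at 0.215 against 0.259.

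For a view of the muscle in each scraping, the members were split, after their signals were seen, by textbook knowledge of where they are made. Vcl, Actn1, Flna, Mylk, Tpm1, Ppp1r12a, Csrp1, Cald1, Srf, Ckb and Myl6 were taken as also made by many other cells, and the other 21 as typical of muscle. The summed signal of the 20 muscle-typical genes ran from 1079.7 to 1174 on control arrays and from 1091 to 1209 on quercetin arrays. The mean level of the 11 tested ones, relative to each gene's mean over the 8 arrays, was -0.02, -0.04, 0.09 and -0.03 on control arrays 1 to 4 and -0.10, 0.09, 0.00 and 0.01 on quercetin arrays 1 to 4. The difference between diets was 0.00 on the log2 scale. Over all 20, the 9 below the filter included, the level ran from -0.16 on control array 4 to 0.15 on quercetin array 2, with a difference of 0.09. In such a mixed sample, fewer cells of a type and less RNA per cell cannot be told apart.

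The widely made members behaved otherwise on 1 array. Their mean level was 0.26 on control array 1, and from -0.14 to 0.05 on the other 7 arrays. For all 21 tested members together it was 0.12 on control array 1 and from -0.05 to 0.00 elsewhere, and the difference between the diets was -0.04, or 0.00 without control array 1. Of the 21, 6 had their highest signal on control array 1 (Acta2, Myh11, Mylk, Tpm1, Srf and Vcl). That is 28.6%, where 14.8% of all tested probe sets did, and 4 had their lowest there, or 19.0% against 19.8%. On the other arrays 0.0% to 19.0% of the members were highest, against 7.59% to 23.8% of all tested probe sets. Control array 1 was looked at because earlier results of these data had shown it to be high, so its higher share is no independent result. Colon epithelium markers also had their highest mean level on that array, at 0.12 against -0.16 to 0.03 on the others. Their summed signal was instead highest on control array 2 (217286), with 211614 on control array 1. Their part in the result was not tested.

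**Figure D4:**
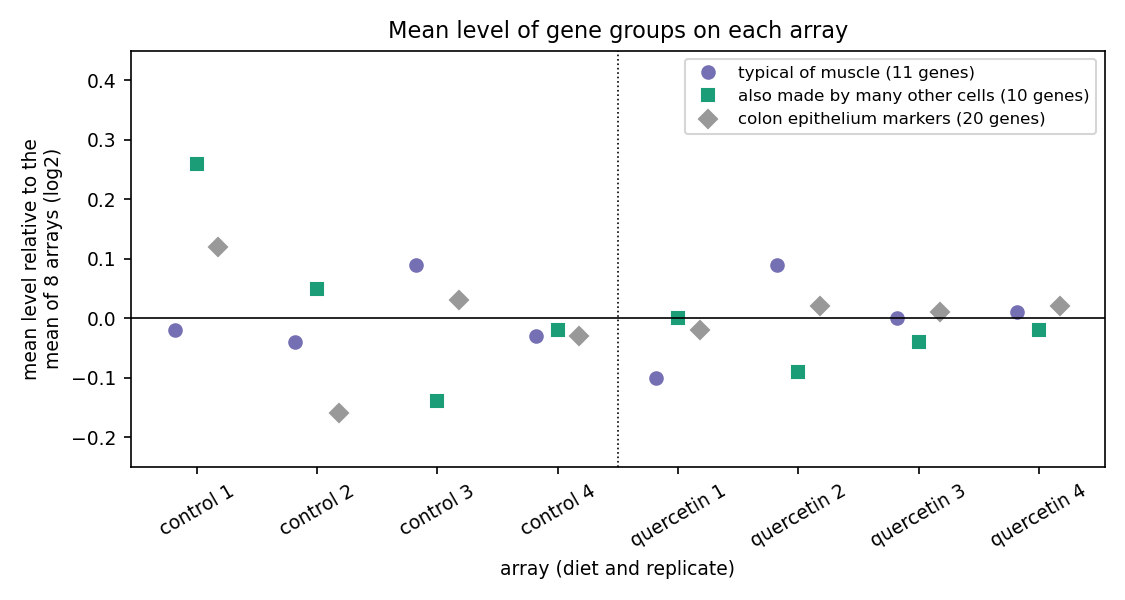
Mean level of 3 gene groups on each array, in log2 units relative to each gene's mean over the 8 arrays: 11 tested members typical of muscle (circles), 10 members also made by many other cells (squares) and 20 colon epithelium markers (diamonds). Control array 1 is high for the widely made members (0.26) and the epithelium markers (0.12) and not for the muscle-typical members (-0.02). The members were split after their signals were seen, and the muscle-typical Acta2 and Myh11 were also highest on that array.

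The summed signal of the 21 tested members was lower on every quercetin array (8472 to 9795) than on every control array (9933 to 15055). The gap was narrow, and the sums overlapped once any 1 of 3 members (Vcl, Tpm1 or Actn1) was left out. Without Vcl they ran from 7310 to 9745 in control and from 7183 to 8179 in quercetin. Most of the sum came from the 10 widely made members (8851 to 14039 in control and 7454 to 8798 in quercetin). The 11 tested muscle-typical members summed to 980 to 1082 in control and 940.4 to 1017 in quercetin, with overlap. Neighbouring cell types were read from their own marker lists. Fibroblast markers summed to 332 to 650.1 in control and 359 to 598 in quercetin (14 genes, 4 above the filter). Enteric neuron markers summed to 462 to 577 and 477 to 774 (21 genes, 7 above), and enteric glia markers to 259.6 to 310.1 and 198 to 267 (8 genes, 3 above). Pericyte and vessel wall markers summed to 133 to 209.8 and 149 to 233 (9 genes, 1 above). In each list the diets overlapped, and 0 genes passed limma's adjusted threshold.

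Other genes of contraction, its control and its actin attachments, taken from a list of 71 of which 47 were tested, were read next. Of the 47, 0 passed limma's adjusted threshold, 27 were higher and 20 lower in quercetin, and the median log2 fold change was 0.05. At an unadjusted p under 0.05 there were 7 (14.9%, against 10.8% of all probe sets tested), 3 higher and 4 lower, and 6 did not overlap between the diets (12.8%, against 6.39%). The smallest p on the lower side belonged to Palld, palladin, an actin scaffold of stress fibres, with 4008, 4495, 3562 and 3768 in control and 2897, 2725, 3324 and 2879.6 in quercetin (log2 fold change -0.42, SE 0.123, adjusted p = 0.285). Every quercetin array was below every control array, as for Vcl. Next came Fhl1, a LIM protein of muscle (-0.70, SE 0.258), Rgs2, a brake on G protein signals (-0.58), Jph2, which anchors calcium stores to the membrane (-0.59), and Pde5a, which breaks down cyclic GMP (-0.53).

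On the higher side were Gata6, a factor of smooth muscle and gut epithelium (log2 fold change 0.66, SE 0.200, adjusted p = 0.299), and Itgb1, the beta chain of integrins (0.35, SE 0.123, adjusted p = 0.349). Gata6 had 127, 76.8, 115 and 124 in control and 160.4, 218, 201 and 152 in quercetin, and Itgb1 had 1456 to 1914 and 2006 to 2256. Neither overlapped between the diets. Control array 2 had the lowest signal for Gata6 and Itgb1, and without it their log2 fold changes were 0.52 and 0.28. Without control array 1 they were 0.72 and 0.41. Filip1l (0.38, or 0.25 without control array 2), Ldb3, a Z-disc protein (0.53), and Csrp2, a LIM protein of smooth muscle (0.45), completed that side, all with overlap. None of these 10 genes passed. Only the brightest probe set of each is given here, though several of them have more.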

How the data were processed

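Total RNA from distal colon scrapings (4 control, 4 quercetin samples, grouped and numbered by title) was labelled with biotin and hybridised to Affymetrix rat arrays. The deposited table holds linear intensity values; MAS5 is the tool that the submitters' processing notes name, and further steps are not stated there. The 57 array controls among 31099 probe sets were dropped. The members, gene lists and alternatives were chosen with earlier results of these data known. Signals became log2(signal + 16), which understates changes of dim probe sets, and 18625 probe sets (upper 60% by mean) were compared with limma 3.58.1 in R 4.3.3 (eBayes with trend, two-sided, Benjamini-Hochberg). The median SE of a log2 fold change was 0.222, and the number of arrays limits precision. Symbols came from the platform annotation (1 symbol for 20826 probe sets, several for 436, none for 9780). Every member was described; of the other contraction genes the 5 with the smallest p in each direction were named, and of each cell type list up to 3 by mean signal. Data were simulated for this comparison (18625 probe sets, 200 changed, picked at random). The noise was normal and independent between arrays, with the mean and spread of each probe set, so the rates are not those of the members. Recovered were 4.2% of log2 changes of 0.5, 44.4% of changes of 1 and 86.6% of changes of 2. Same-numbered arrays deviated with correlations of -0.0234, 0.163, -0.151 and 0.138, so the numbers were not taken as pairs.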

Additional observations from a re-analysis of the deposited data

Results flagged for a closer look

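A single array lay far from its group in 7 of 84 groups of 4 arrays (30 member genes and 12 list levels, both diets), and chance alone would give about 4.2. The number beside each is that array's distance to its nearest neighbour divided by the range of the group, on the log2 scale. Control array 1 was high for Acta2 (0.852), for Ppp1r14a (0.905) and for the mean level of the 21 tested members (0.83). Control array 2 was high for Tagln (0.847), at a signal of 8.86. Quercetin array 1 was low for Myh11 (0.87). Enteric neuron markers were low on control array 4 (0.831), and endothelium markers were high on quercetin array 3 (0.852).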

How the results depend on the processing

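No member and no other contraction gene passed in any alternative, and over 403 pairs of a member and an alternative the smallest adjusted p was 0.108. Of 21 members, 13 kept their sign throughout, among them Vcl (-1.23 to -0.39, adjusted p 0.108 to 0.594). Over all probe sets, 2 passed in the main comparison, 3 with a pseudocount of 64 and 1 with a pseudocount of 1, quantile normalisation, median centring, no filter, the replicate block or eBayes without the trend, while 0 passed without control arrays 1 and 2, and 1 to 2 without any 1 array. The block changed no call of a member. Members without overlap numbered 1 to 3 without any 1 array, 6 without control arrays 1 and 2, where only 2 control arrays remain, and 0 with probe sets averaged by gene. Groups of fewer arrays separate more easily, and the share of all probe sets is not given for these settings. These counts therefore cannot be set against the 6.39% of the main comparison or read as a result about the members. The members' median was 0.09 with no filter (17 of 30 higher, level difference 0.04), 0.03 with array weights, 0.11 with the second probe set (1 member then highest on control array 1) and -0.10 to 0.08 without any 1 array. With the upper 40% of probe sets, 6 members were higher and the level difference was -0.11. The sign turned in 21 pairs. Cald1 had 0.28 with array weights, 0.58 without control arrays 1 and 2, and up to 0.15 (lowest -0.31) without 1 array. Hspb7 had 0.02 with median centring and -0.30 to 0.22 without 1 array. Acta2 ran from -0.04 to 0.44, Des from -0.10 to 0.35 and Actn1 from -0.06 to 0.39 without 1 array. Ppp1r12a had -0.18 with the second probe set, -0.01 with the mean of probe sets and -0.02 to 0.14 without 1 array. With the second probe set Synpo2 had 0.18 and Srf 0.04. The cause was not tested.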

Other observations

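Other cell types that lie beside smooth muscle also had values of their own. Of the markers of interstitial cells of Cajal, the pacemaker cells of the gut wall, Thbs4 had signals of 1045 to 2496 and Ano1, a calcium-activated chloride channel, 480.4 to 1327 over the 8 arrays, and both overlapped between the diets. Of the 7 such markers with a probe set, 4 were below the filter, among them Kit at 2.31 to 39.7. Cacna1h, a calcium channel, had 14.4 to 55.8 in control and 52.2 to 87.7 in quercetin (log2 fold change 0.66, limma adjusted p = 0.464). Among striated muscle markers, the probe set annotated to Myh1, a fast skeletal myosin, had 7357 to 10556. The platform annotation can be old, and which transcript this probe set reads was not checked; its ending _x_at marks probes that may also match other transcripts. Tnni1, a troponin, had 27.0 to 99.4, and 17 of the 21 markers with a probe set were below the filter. Acta1, skeletal actin, had 6.04 on control array 2 and 82.8 to 187 on the other arrays. Fabp4, a fatty acid binding protein of adipocytes and endothelium, had 3.26, 3.39, 27.3 and 22.8 in control and 168, 87.5, 24.1 and 43.4 in quercetin, a log2 fold change of 1.54 that did not pass (SE 0.470, limma adjusted p = 0.300). The other adipocyte markers named by brightness were Cidec (-0.13) and Adipoq (0.41).

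The brightest markers of the remaining cell types also overlapped between the diets. For enteric neurons these were Scg2 (log2 fold change -0.06), the peptide Npy (0.22) and Nos1, which makes nitric oxide (0.47), with signals of 9.12 to 96.9. For enteric glia they were Erbb3 (0.11), Gfra3 (-0.58) and S100b (-0.03). Among fibroblast markers, the intermediate filament Vim had 129 to 228 (0.14), Fbln1 had 0.13 and the collagen Col1a1 -0.14. Of the pericyte markers Notch3 had 0.26, while Pdgfrb and Rgs5 were below the filter, at 3.05 to 74.6 and 1.64 to 41. Endothelium was read by Esam (-0.19), the lymphatic factor Prox1 (0.23) and Pecam1 (-0.11), with signals of 15.3 to 275. Mesothelium was read by Lrrn4 (-0.27), Wt1 and Msln, of which the last 2 were below the filter, at 4.58 to 60.7. In the epithelium the mucin Muc2 had signals of 19258 to 39228 (-0.21), and the keratins Krt8 (-0.17) and Krt19 (-0.16) 17838 to 27443.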
